A study of Mus musculus with 4 samples.

Results

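The Trem2-Tyrobp receptor complex and its first signalling steps were examined in cortex RNA of 12-month-old male mice. The groups were 2 APPswe/PS1ΔE9 double transgenic mice (APP), a model of Alzheimer's disease (AD), and 2 C57BL/6J wild type (WT) mice, with 1 library per mouse. Both groups had a C57BL/6 background, and the labels describe no treatment but anaesthesia before the cortex was taken. The transgenes of this line, a human/mouse APP with the Swedish mutations and a human presenilin 1 without exon 9, are driven by the mouse prion protein (Prnp) promoter, and the labels describe the wild type only as such. The genes were chosen by name as the receptor Trem2, its adaptors Tyrobp and Hcst, the kinase Syk, the phospholipase Plcg2 and the phosphatase Inpp5d. Of these 6 genes, 5 had counted transcripts, among 18386 genes and unassigned transcripts in all, and they held 9 of 37539 transcripts. Hcst was not analysed here. An exact match of the gene symbol found 1 transcript and a match in any letter case found 6, and the Ensembl identifier found 9, since both Syk transcripts were listed as Sykb and 1 Inpp5d transcript had no symbol.

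Trem2 is a receptor on the surface of microglia, the resident macrophages of the brain, and binds lipids, lipoproteins and amyloid-β. It has no signalling tail of its own and passes its signal through Tyrobp, also called DAP12, whose cytoplasmic tail holds an immunoreceptor tyrosine-based activation motif (ITAM). Src family kinases phosphorylate the ITAM tyrosines, and Syk binds them and activates phospholipase Cγ2 (Plcg2). PI3-kinase is activated as well, partly through the adaptor Hcst (DAP10). Inpp5d (SHIP1) removes a phosphate from the lipid product of PI3-kinase and dampens the signal. TREM2, PLCG2 and INPP5D are all human risk genes for AD.

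All 5 genes lay in GRCm38 on the forward strand. Trem2 spanned chr17:48346401-48354147, Tyrobp chr7:30413760-30417585, Syk chr13:52583173-52648792, Plcg2 chr8:117498291-117635142 and Inpp5d chr1:87620312-87720507. Hcst is annotated at chr7:30417712-30419854 on the reverse strand, 126 bases beyond the end of Tyrobp. The ITAM is the part of Tyrobp on which the pathway turns, and its 45 coding bases in Tyrobp-201 are shown 5′ to 3′ with the 2 tyrosine codons in capitals. They were found by translating the GENCODE M21 transcript and searching for a tyrosine 3 residues before a leucine or isoleucine, repeated after 6 to 12 residues. The translation had 114 residues and held 1 such pair, with the tyrosines at residues 92 and 103. The stretch begins at chr7:30415670 in exon 4, crosses an intron, and ends at chr7:30417382 in exon 5 of 5.
Tyrobp-201 ITAM codons: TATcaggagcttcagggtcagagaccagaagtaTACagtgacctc

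The 2 protein-coding Trem2 transcripts counted here differ at exons 1 and 4. Exon 1 begins at chr17:48346401 in Trem2-201 and at chr17:48346488 in Trem2-202. Trem2-202 begins exon 4 earlier than Trem2-201, by the 55 bases at chr17:48351691-48351745. The last 20 bases of exon 3 and the first 20 of the shared part of exon 4 are given for both, with the extra 55 bases in capitals.
Trem2-201 exon 3 to exon 4: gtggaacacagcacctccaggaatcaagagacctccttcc
Trem2-202 exon 3 to exon 4: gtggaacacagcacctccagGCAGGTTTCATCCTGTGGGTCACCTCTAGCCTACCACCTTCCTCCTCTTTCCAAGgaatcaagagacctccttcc
The annotated coding part is 681 bases in Trem2-201 and 747 in Trem2-202, without the stop codon. The third counted form, Trem2-203, is a retained intron transcript of 4784 bases that keeps the first intron and ends later than the other two.

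The libraries are numbered as in the deposited table. Their totals were 28525117 (APP.3), 31392983 (APP.4), 43881196 (WT.1) and 35623228 (WT.2) counts. Both APP libraries were thus smaller than both WT libraries. After TMM normalization the groups were compared by the quasi-likelihood test of edgeR, and a gene was called at a Benjamini-Hochberg adjusted p under 0.05 with a fold change of at least 1.5. CPM values, counts per 1000000 counts of a library, use the TMM library sizes, and errors are SDs over the 2 libraries of a group. For 1 gene alone, 2 mice against 2 allow no p below 0.333 in a two-sided exact permutation test, and the adjusted p-values draw on a spread estimated across genes. As a check of the labels, App was at 2679 and 2388 CPM in the APP libraries against 857 and 905 in WT (log2 fold change 1.52, edgeR quasi-likelihood adjusted p = 2.11e-05), and Prnp was at 1856 and 1622 against 527 and 535 (1.71, adjusted p = 1.57e-05).

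Trem2 and Tyrobp were higher in APP cortex by 3.51-fold and 4.24-fold, and Inpp5d by 1.72-fold. Plcg2 and Syk were 1.70-fold and 1.39-fold higher in value without passing the test. In edgeR's quasi-likelihood test 3 of the 5 genes were called, all higher in APP, beside 0.843% of all genes called in that direction. In all 5 genes both APP libraries lay above both WT libraries, which held for 21.3% of all genes. The median log2 fold change was 0.78 over the 5 genes and -0.0011 over all genes. RNA of whole cortex cannot tell more microglia apart from more RNA per microglial cell.

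**Figure D1:**
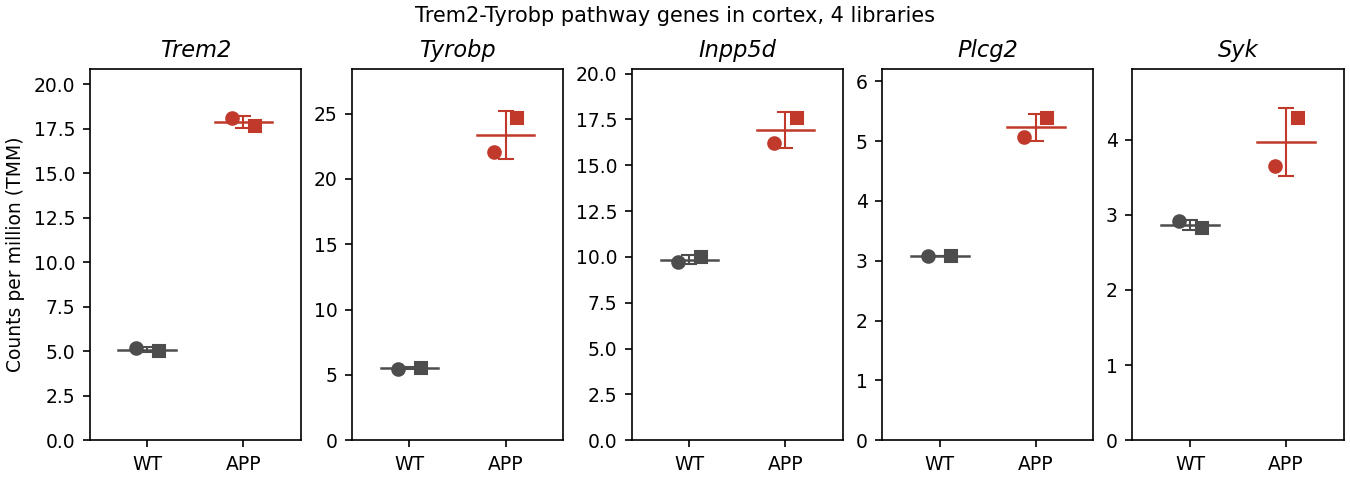
TMM-normalized CPM of each gene in the 4 libraries (circles, WT.1 and APP.3; squares, WT.2 and APP.4), with the group mean as a line and the SD over 2 libraries as a bar. Each axis starts at 0 and has its own scale, and in every panel the APP points lie above the WT points, by the widest margin for Tyrobp (22.1 and 24.7 against 5.48 and 5.56 CPM).

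The receptor Trem2 was counted 526 times (APP.3) and 547 times (APP.4) in APP, against 228 (WT.1) and 177 (WT.2) in WT. These were 18.1 and 17.7 CPM in APP and 5.19 and 4.99 CPM in WT, or 17.9 ± 0.332 against 5.09 ± 0.138 (SD, n = 2). The groups did not overlap, and the lower APP library was 3.40 times the higher WT library. The log2 fold change was 1.81 (SE 0.11, 95% interval 1.55 to 2.07, edgeR quasi-likelihood adjusted p = 0.000165).

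Tyrobp, the adaptor that carries the ITAM shown above, was counted 641 and 765 times in APP.3 and APP.4 and 241 and 197 times in WT.1 and WT.2. It stood at 22.1 and 24.7 CPM against 5.48 and 5.56 CPM (23.4 ± 1.84 against 5.52 ± 0.0518, SD, n = 2). Both WT libraries were nearly equal, and APP.4 was the highest of the 4. The log2 fold change was 2.08 (SE 0.11, 95% interval 1.83 to 2.33, edgeR quasi-likelihood adjusted p = 5.23e-05). Of the other genes within 20000 bases of Tyrobp that were counted, Nfkbid, an inhibitor of NF-κB, had a log2 fold change of -0.05 and Aplp1, a relative of App, of -0.01, with adjusted p-values of 0.972 and 0.975. No counted gene lay within that distance of Trem2.

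The ratio of Trem2 to Tyrobp counts was 0.821 and 0.715 in the APP libraries and 0.946 and 0.898 in WT. It was lower in both APP libraries than in both WT libraries, at the smallest p that the exact permutation test can give (0.333). The Trem2 counts in this ratio include the retained intron form Trem2-203. That form took 15.6% and 21.9% of them in APP.3 and APP.4 and 30.7% and 32.2% in WT.1 and WT.2, and its part in the ratio was not tested. Taken per length, the ratio was 0.374 and 0.308 in APP and 0.374 and 0.350 in WT, with overlapping groups.

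Inpp5d, the inhibitory lipid phosphatase, was counted 471 and 545 times in APP.3 and APP.4 and 426 and 355 times in WT.1 and WT.2. These were 16.2 and 17.6 CPM against 9.69 and 10.01 CPM (16.9 ± 0.963 against 9.85 ± 0.227, SD, n = 2), without overlap. The log2 fold change was 0.78 (SE 0.10, 95% interval 0.54 to 1.02, edgeR quasi-likelihood adjusted p = 0.0139).

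Plcg2, which cleaves a membrane phosphoinositide into second messengers, was counted 147 and 167 times in APP.3 and APP.4 and 135 and 109 times in WT.1 and WT.2. Its levels were 5.07 and 5.39 CPM against 3.07 and 3.08 CPM. The groups did not overlap, but the log2 fold change of 0.77 (SE 0.16, 95% interval 0.40 to 1.13) had an edgeR quasi-likelihood adjusted p of 0.0682. Plcg2 was called under 5 of the 16 alternatives run, among them edgeR's exact and likelihood ratio tests and the test of single transcripts. It was not called by DESeq2 (adjusted p = 0.136). Nor was it called with at least 10 counts in every library (edgeR quasi-likelihood adjusted p = 0.0828). Leaving out 1 library at a time gave log2 fold changes of 0.72 to 0.81.

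Syk, the kinase that binds the phosphorylated ITAM, was counted 106 and 133 times in APP.3 and APP.4 and 128 and 100 times in WT.1 and WT.2, the fewest of the 5 genes. It stood at 3.65 and 4.29 CPM against 2.91 and 2.82 CPM. The log2 fold change was 0.47 (SE 0.18, 95% interval 0.07 to 0.88, edgeR quasi-likelihood adjusted p = 0.321), and Syk was called under none of the 16 alternatives run.

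Levels of different genes were compared as RPKM, that is CPM per kilobase of transcript, each transcript taken with its own length and then summed per gene. In WT the RPKM level was 9.79 ± 0.0918 for Tyrobp, 3.54 ± 0.136 for Trem2, 2.11 ± 0.0427 for Inpp5d, 0.715 ± 0.000467 for Plcg2 and 0.618 ± 0.0356 for Syk (SD, n = 2). In APP it was 41.5 ± 3.27 for Tyrobp, 14.1 ± 0.830 for Trem2, 3.59 ± 0.262 for Inpp5d, 1.22 ± 0.0535 for Plcg2 and 0.879 ± 0.133 for Syk. This order of levels was the same in the 4 libraries. The closest neighbours were Plcg2 and Syk, at 0.715 and 0.715 against 0.643 and 0.593 RPKM in WT.1 and WT.2, and no neighbouring pair in the order overlapped within a group.

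Microglial markers moved with these genes. The 12 homeostatic microglial markers, among them P2ry12, Tmem119 and Cx3cr1, summed to 358 and 395 CPM in APP.3 and APP.4 against 212 and 219 CPM in WT.1 and WT.2, a ratio of group means of 1.75. Of the 12, 6 were called higher in APP and 0 lower, beside 0.843% of all genes called higher, with a median log2 fold change of 0.76 and none at 0 in any library. Among them Gpr34 had 1.10 and Cx3cr1 0.72, while P2ry12 at 0.52 (adjusted p = 0.0541) and Tmem119 at 0.30 (adjusted p = 0.586) did not pass edgeR's quasi-likelihood test.

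Relative to those markers, Trem2 and Tyrobp were still higher in APP, and Inpp5d, Plcg2 and Syk were not called in either direction. Per 1000 counts of the 12 markers, Trem2 was counted 50.7 and 44.8 times in APP.3 and APP.4 and 24.5 and 22.8 times in WT.1 and WT.2. Tyrobp was counted 61.8 and 62.6 times against 25.9 and 25.4 times. In both genes the 2 APP libraries lay above the 2 WT libraries, as in 1.34% of all genes on this scale.
Inpp5d by contrast stood at 45.4 and 44.6 per 1000 marker counts in APP and 45.7 and 45.8 in WT, so that the APP libraries were slightly lower. Plcg2 stood at 14.2 and 13.7 against 14.5 and 14.1, with overlapping groups. Syk stood at 10.2 and 10.9 against 13.7 and 12.9, so that both APP libraries were below both WT libraries. For Inpp5d and Syk this order was that of 87.4% of all genes on this scale.

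The same scaling was put into the edgeR fit by setting the library sizes to the summed marker counts. On this scale the median log2 fold change of all genes was -0.80, and 71.7% of genes were called lower and 0.587% higher in APP. Trem2 had a log2 fold change of 1.01 (95% interval 0.70 to 1.32, edgeR quasi-likelihood adjusted p = 7.23e-06) and Tyrobp of 1.28 (0.99 to 1.56, adjusted p = 2.12e-06), and both were called. The values were -0.024 for Inpp5d (95% interval -0.30 to 0.25, adjusted p = 0.872), -0.037 for Plcg2 (-0.44 to 0.36, adjusted p = 0.863) and -0.34 for Syk (-0.76 to 0.09, adjusted p = 0.135). These intervals take the summed markers as known. With the geometric mean of the 12 markers in place of their sum, the log2 fold change was 1.05 for Trem2 and 1.32 for Tyrobp. Over the 16 alternatives and the reported fit the adjusted p ran from 1.04e-33 to 0.000248 for Trem2, from 1.20e-48 to 8.22e-05 for Tyrobp, from 4.00e-07 to 0.912 for Inpp5d, from 0.00609 to 0.984 for Plcg2 and from 0.111 to 0.919 for Syk.

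**Figure D2:**
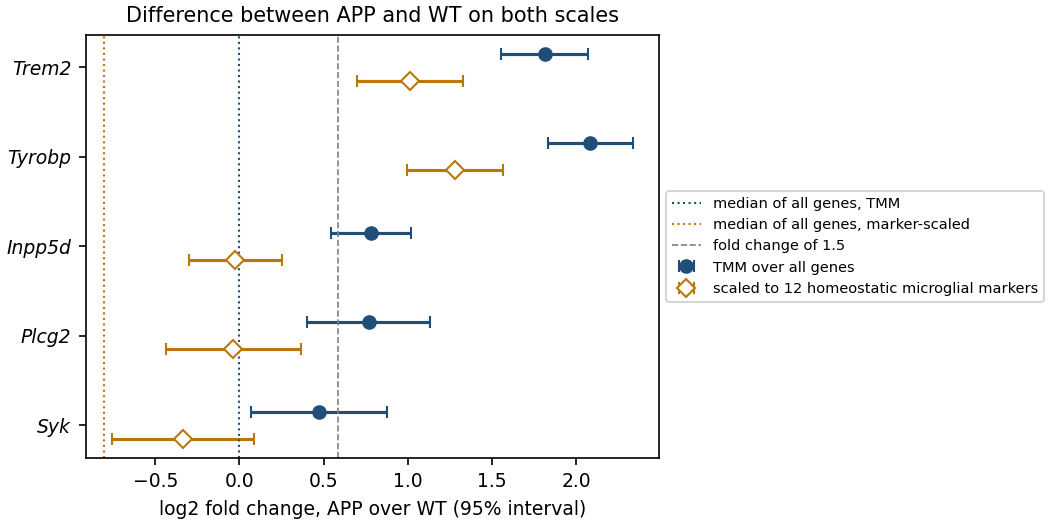
Log2 fold change of APP over WT with its 95% interval for the 5 genes, with TMM over all genes (filled circles) and with libraries scaled to the 12 homeostatic microglial markers (open diamonds). Trem2 and Tyrobp lie right of 0 on both scales, while the marker-scaled intervals of Inpp5d, Plcg2 and Syk include 0, and dotted lines give the median of all genes on each scale (-0.0011 and -0.80).

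Markers of other cells were measured beside them. The 8 border and perivascular macrophage markers, which other Trem2- and Tyrobp-expressing cells of the brain would carry, summed to 13.7 and 13.3 CPM in APP against 14.1 and 13.7 in WT, and none was called. Of the markers of monocytes and neutrophils (9 listed), T and NK cells (11) and B cells (5), 11 were counted in all, at no more than 114 counts in a library, and none was called. The median log2 fold change was 0.52 over the 4 counted monocyte and neutrophil markers, at no more than 24 counts in a library, 0.19 over the 4 of T and NK cells and 0.05 over the 3 of B cells. It was -0.12 over the 9 cortical neuron markers and -0.10 over the 8 endothelial markers, and none of either was called. Of these lists the cortical neurons had 3 markers with an unadjusted p under 0.05, and the macrophages, blood cells and endothelium 0. DESeq2 and edgeR's exact and likelihood ratio tests called 0 in each. With 0.843% of all genes called higher in APP, a count of 0 in lists this short does not set them apart. Over the 8 astrocyte markers the median was 0.22, with Gfap (2.82) and Aqp4 (0.72) called, and 4 had an unadjusted p under 0.05. Over the 8 oligodendrocyte markers the median was 0.48, with Mag (0.70) called. All 8 oligodendrocyte markers had an unadjusted p under 0.05, and 4 had an edgeR quasi-likelihood adjusted p under 0.05. In all 8 both APP libraries lay above both WT libraries, as in 21.3% of all genes. Hypothalamic markers summed to 6.03 and 9.30 CPM in APP and 1.46 and 0.987 CPM in WT, and 2 of the 6 counted, Avp and Sim1, were called. Their median log2 fold change was 3.93, at no more than 103 counts in a library and with 3 of the 6 at 0 in a library. In all 6 both APP libraries lay above both WT libraries, and 5 had an unadjusted p under 0.05. DESeq2 called 4 of them, and edgeR's exact and likelihood ratio tests each called 5. Counts of Avp were 18 and 102 in the APP libraries and 2 and 0 in the WT libraries. The part of these shifts in the values of the Trem2 pathway was not tested.

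The counts were also read by the annotated transcript to which they were assigned. By the same test over all transcripts, 5 of the 9 were called higher in APP beside 0.749% of all transcripts, namely Trem2-201, Trem2-203, Tyrobp-201, Inpp5d-201 and Plcg2-201. Trem2-201 was counted 437 and 417 times in APP.3 and APP.4 and 154 and 120 times in WT.1 and WT.2 (log2 fold change 2.05, SE 0.14, edgeR quasi-likelihood adjusted p = 8.52e-07). Trem2-203 was counted 82 and 120 times against 70 and 57 (1.07, SE 0.22, adjusted p = 0.0244). Trem2-202, the form with the longer exon 4 shown above, had 7 and 10 counts against 4 and 0 (adjusted p = 0.422), too few for a fold change to be read.

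The share of Trem2 counts on the retained intron form was lower in both APP libraries than in both WT libraries, without passing a test over all transcripts. Trem2-203 took 15.6% (12.6 to 19.0, APP.3) and 21.9% (18.5 to 25.6, APP.4) of Trem2 counts in APP and 30.7% (24.8 to 37.1, WT.1) and 32.2% (25.4 to 39.6, WT.2) in WT, with exact 95% binomial intervals. Trem2-201 took 83.1%, 76.2%, 67.5% and 67.8%, in the same order. With edgeR, the comparison of each transcript with the others of its gene, chosen after these shares were seen, gave Trem2-203 a relative log2 fold change of -0.75 with an adjusted p of 0.999999 over 26648 transcripts. Of all those transcripts 0.0338% passed. Of the 7 member transcripts that could be compared, 0 passed and 1, Trem2-203, had an unadjusted p under 0.05.
Trem2-202 took 1.33% and 1.83% in APP and 1.75% in WT.1, and it had 0 of 177 counts in WT.2, where the exact 95% interval reaches 2.06% and a limit of 3 counts is a share of 1.69%. The reads carry no molecular identifiers, so these intervals and limits cover counting error only.

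Most of the sequence of the protein-coding Trem2 forms is shared, which limits how well their counts can be told apart. Of the 100-base windows of Trem2-201, 96.1% also occur in Trem2-202 or Trem2-203, and 39 windows are its own. The share is 84.2% for Trem2-202, with 151 windows of its own, and 18.2% for Trem2-203, with 3831. How the authors placed reads that match several transcripts is not given in the sources used here. No window of the 9 transcripts occurs unchanged in a transcript of another gene, although the alignment allowed 7 mismatches. Trem2-203 holds intronic sequence, and its counts cannot be told apart from unspliced RNA of the gene.

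**Figure D3:**
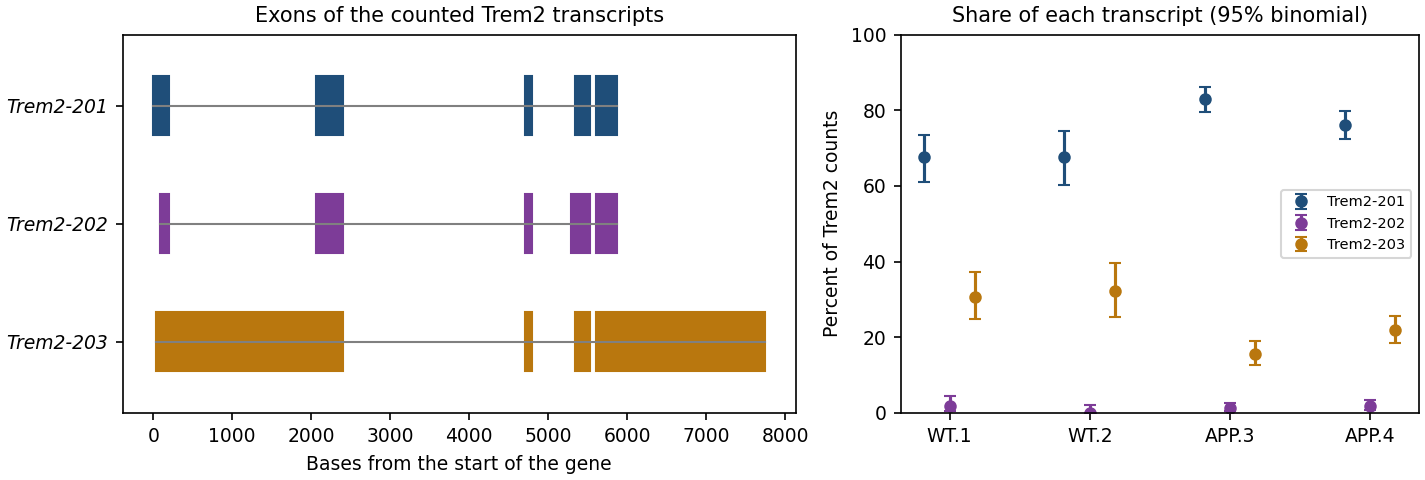
Left, exons (boxes) of the 3 counted Trem2 transcripts by distance in bases from the start of the gene; right, the percent of Trem2 counts on each transcript in each library, with exact 95% binomial intervals. Trem2-203 keeps the first intron and extends furthest, and its share lies between 15.6% and 21.9% in APP and between 30.7% and 32.2% in WT.

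The other genes were counted mainly on 1 form each. Tyrobp and Plcg2 had a single counted transcript, Tyrobp-201 (log2 fold change 2.09, adjusted p = 5.39e-08) and Plcg2-201 (0.77, SE 0.17, adjusted p = 0.0372), both from edgeR's quasi-likelihood test over transcripts. Inpp5d-201 held 97.45%, 95.05%, 95.07% and 95.49% of Inpp5d counts in APP.3, APP.4, WT.1 and WT.2, and had a log2 fold change of 0.80 (adjusted p = 0.00159). Inpp5d-206, a processed transcript without an annotated protein, had 12 and 27 counts in APP and 21 and 16 in WT, with overlapping groups (adjusted p = 0.836). Syk-201 was counted 99 and 119 times against 117 and 95 (log2 fold change 0.45, adjusted p = 0.449), and the retained intron form Syk-204 7 and 14 times against 11 and 5 (adjusted p = 0.794). The annotation lists 11 transcripts for Inpp5d, 5 for Syk, 4 for Trem2, 3 for Tyrobp and 1 for Plcg2. Every 100-base window of Tyrobp-201 and of Inpp5d-201 also occurs in other annotated forms of its gene, as do 97.9% of those of Syk-201. The counts alone therefore cannot show which of these forms was present.

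The bases before the annotated starts of Trem2 and Inpp5d, called here and listed in the promoter table, are shown because both genes moved in the same direction. RefSeq promoter entries (GRCm38.p6) were found for 5 of the 6 genes, with 2 for Syk, and not for Tyrobp. They were searched on both strands for GAGGAAGT, a site bound by PU.1, the macrophage lineage factor, and for its shorter overlapping core GGAAGT. Of the 32851 entries, 2.44% hold GAGGAAGT and 19.7% hold GGAAGT in the 250 bases before the start. Trem2 (chr17:48346151-48346400) has neither, and Inpp5d (chr1:87620062-87620311) has GAGGAAGT starting 20 bases before its start, in capitals. This Inpp5d start matches that of the annotated form Inpp5d-210 (chr1:87620312), which was not counted. Inpp5d-201, the form with most of the Inpp5d counts, starts further downstream at chr1:87620362.
Trem2, 250 bases before the start: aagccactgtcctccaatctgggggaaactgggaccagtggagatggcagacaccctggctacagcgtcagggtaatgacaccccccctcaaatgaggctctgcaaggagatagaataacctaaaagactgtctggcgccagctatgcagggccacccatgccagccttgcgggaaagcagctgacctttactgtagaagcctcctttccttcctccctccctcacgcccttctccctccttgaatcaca
Inpp5d, 250 bases before the start: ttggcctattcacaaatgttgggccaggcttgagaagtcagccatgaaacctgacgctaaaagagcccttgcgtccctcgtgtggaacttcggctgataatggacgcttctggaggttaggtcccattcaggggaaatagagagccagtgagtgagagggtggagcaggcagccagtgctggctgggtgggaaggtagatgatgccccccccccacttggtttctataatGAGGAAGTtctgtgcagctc
Plcg2 and both Syk entries hold neither motif, and Hcst holds GGAAGT at 45 and 16 bases before its start. A match describes these letters only.

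Beyond the 5 genes, 101 genes of the pathway were listed by role, of which 82 were counted. Of these, 8 were called higher in APP and 0 lower, beside 0.843% of all genes called higher, with a median log2 fold change of 0.13 against -0.0011 over all genes. The 8 are known from white blood cells and microglia, and 74 genes were not called.

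Upstream of the receptor, 0 of 5 ligands and 0 of 2 sheddases were called in edgeR's quasi-likelihood test, and 0 in its exact and likelihood ratio tests and DESeq2. At an unadjusted p under 0.05 there were 2 ligands and 0 sheddases. With 0.843% of all genes called higher, a count of 0 in lists this short does not set them apart. Apoe, the lipoprotein that binds Trem2, was at 650 and 750 CPM in APP and 542 and 547 in WT (log2 fold change 0.36, 95% interval 0.18 to 0.54, edgeR quasi-likelihood adjusted p = 0.0789). Clu, another lipoprotein ligand, which was named after its values were seen, passed the adjusted p (0.0236) at a log2 fold change of 0.41, under the fold cut-off. The sheddases Adam10 and Adam17, which cut Trem2 from the cell surface, had log2 fold changes of 0.04 and 0.07 (95% intervals -0.10 to 0.18 and -0.16 to 0.30).

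Of 19 other receptors that pair with or signal through Tyrobp, 6 were counted and 3 were called, all higher in APP, beside 0.843% of all genes. Itgb2, the β2 integrin chain, stood at 6.96 and 5.78 CPM in APP and 2.75 and 2.82 in WT (log2 fold change 1.19, SE 0.17, edgeR quasi-likelihood adjusted p = 0.0156). Csf1r, the receptor for the growth factors on which microglia depend, had a log2 fold change of 0.69 (adjusted p = 0.0174), as had the microglial lectin Siglech (0.69, adjusted p = 0.0282). Fcer1g, the ITAM adaptor of Fc receptors, was at 2.93 and 3.68 CPM against 1.16 and 1.86, with an interval of 0.53 to 1.75 around 1.14 and an adjusted p of 0.106.

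Among the kinases and adaptors around Syk, Lyn was called of the 6 counted Src family kinases (log2 fold change 0.78, SE 0.13, edgeR quasi-likelihood adjusted p = 0.0313), and Vav1, an exchange factor for Rac, of the 19 counted Syk substrates and adaptors (1.14, SE 0.19, adjusted p = 0.0305). Vav1 was counted 133 and 163 times in APP.3 and APP.4 and 88 times in each WT library. The other 5 Src family kinases and 18 Syk substrates and adaptors were not called, beside 0.843% of all genes called higher in APP. The median log2 fold changes were 0.41 and 0.42. DESeq2 called 1 and 2 genes of these lists, and edgeR's exact and likelihood ratio tests each called 1 and 4. Zap70, the relative of Syk in T cells, had 15 and 14 counts against 13 and 11 (adjusted p = 0.647).

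Of the 13 inhibitory receptors and phosphatases, 3 were called, all higher in APP, beside 0.843% of all genes. Lilrb4a, an inhibitory receptor, was counted 61 and 49 times in APP and 7 and 4 times in WT, with a log2 fold change of 3.70 (95% interval 2.76 to 4.65, edgeR quasi-likelihood adjusted p = 0.00588). Ptprc, the phosphatase CD45, stood at 15.9 and 19.6 CPM against 5.62 and 8.24 (1.37, SE 0.18, adjusted p = 0.0139), and Ptpn6, the phosphatase SHP-1, at 3.86 and 5.04 against 2.05 and 1.86 (1.18, SE 0.20, adjusted p = 0.0343).

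The arms downstream were counted in full and held no called gene, with 0 of 17 in the PI3-kinase arm (median log2 fold change -0.02) and 0 of 12 in the phospholipase C arm (0.02). With 0.843% of all genes called higher, these counts of 0 are near the background. At an unadjusted p under 0.05 they held 2 and 3 genes. DESeq2 called 0 in either arm, and edgeR's exact and likelihood ratio tests each called 1 in the first, the immune PI3-kinase subunit Pik3cg, named after its value was seen (log2 fold change 0.76, adjusted p = 0.0933 in the quasi-likelihood test), and 0 in the second. Plcg1, the relative of Plcg2 that most tissues express, was at 64.4 and 66.2 CPM in APP and 67.3 and 66.8 in WT (log2 fold change -0.04, 95% interval -0.19 to 0.11, edgeR quasi-likelihood adjusted p = 0.887). Inppl1 (SHIP2), the relative of Inpp5d, was at 14.0 and 14.8 against 14.4 and 14.7 (-0.02, 95% interval -0.24 to 0.20, adjusted p = 0.970). These intervals lie below those of Plcg2 (0.40 to 1.13) and Inpp5d (0.54 to 1.02), and the differences themselves were not tested. On the scale of the microglial markers, 44 of the 82 genes were called, 2 higher and 42 lower, against the 71.7% of all genes called lower. The 2 higher were Lilrb4a (2.91) and the kinase Btk (0.82), the second named after its value was seen.

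**Figure D4:**
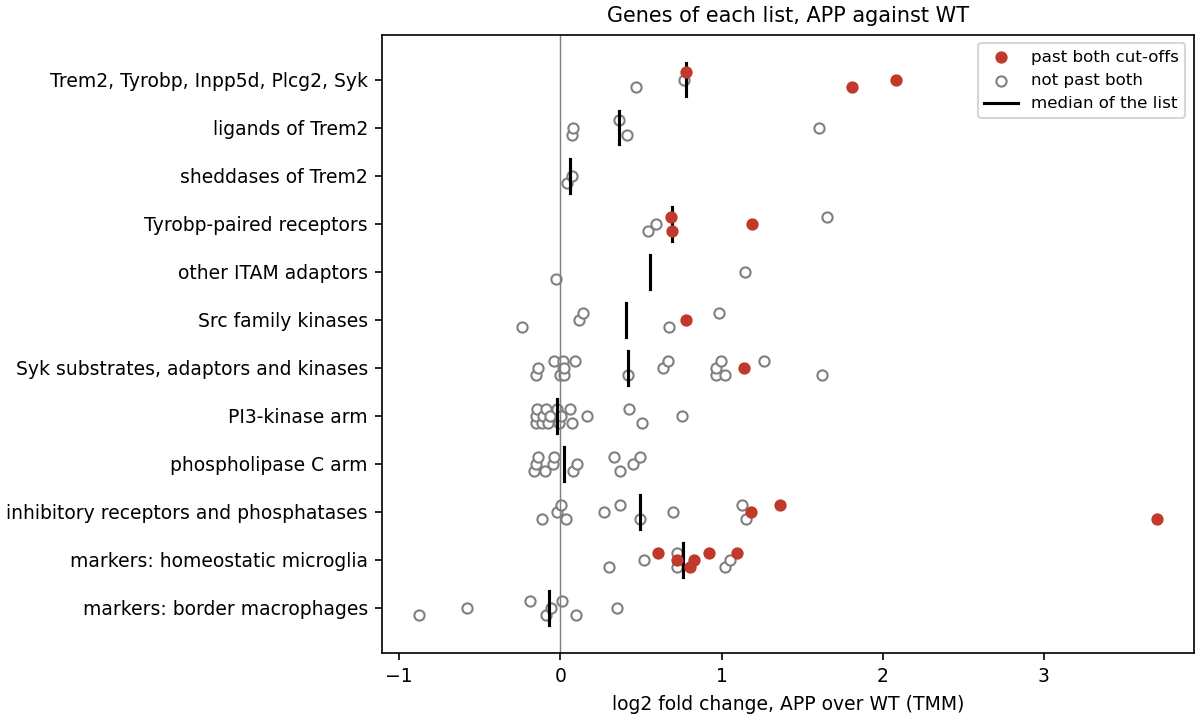
Log2 fold change of APP over WT (TMM) of each counted gene, 1 row per list, with genes past both cut-offs filled and the list's median as a bar. The 17 genes of the PI3-kinase arm and the 12 of the phospholipase C arm hold no filled point, and Lilrb4a lies furthest right at 3.70.

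The genes whose levels followed Trem2 and Tyrobp most closely over the 4 libraries were found among 14667 genes with a mean of at least 1 CPM, by the Euclidean distance of log2 CPM values centred on each gene's mean. Nearest to Trem2 were C3ar1, the receptor for complement C3a (distance 0.135), Prnp (0.155), Tlr2, a receptor for microbial lipoproteins (0.191), Osmr, the oncostatin M receptor (0.196), and the urea transporter Slc14a1 (0.232). Nearest to Tyrobp were Slc14a1 (0.117), Cd68, a lysosomal protein of macrophages (0.176), the peptide transporter Slc15a3 (0.246), the perforin-like Mpeg1 (0.283) and lysozyme, Lyz2 (0.293). Their log2 fold changes ran from 1.68 for Osmr to 2.40 for Slc15a3, and each passed both cut-offs. With 4 libraries in 2 groups, this distance mainly reads the difference between the groups, and Prnp, whose promoter drives the transgenes, stood among the 5 nearest to Trem2.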

How the data were processed

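The authors depleted ribosomal RNA from cortex RNA of 4 mice, sequenced strand-specific 100-base read pairs, discarded pairs matching ribosomal RNA, and aligned the rest with FANSe2 to Ensembl mouse RNA with up to 7 mismatches. They deposited the read count of each transcript, kept at 10 mapped reads or more, without normalization. The Ensembl release, the strand setting of the counting and the edgeR test used are not given in the sources used here. The submitters' processing notes name CASAVA 1.8, edgeR and the human build hg19, whereas the identifiers are mouse. Columns not used were 4 of values per library and 4 of the authors' comparison, which hold their fold change, mean level, p-value and FDR. By number, each WT column could be assigned to 1 mouse, but the APP columns, numbered 3 and 4, to their group alone. Nothing beyond separate mice is stated of the replicates.

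Counts of transcripts with the same gene identifier in GENCODE M21 (GRCm38) were added up. This matched 36858 of them (98.2%), and the 681 others stood alone. No feature fell under a minimum of 10 counts in all. Counts were tested in R 4.3.3 with edgeR 4.0.16 (glmQLFit, glmQLFTest, TMM, no covariate), with DESeq2 1.42.0 as an alternative, after a check on simulated counts. The common dispersion was 0.00778. Log2 CPM had a prior count of 2. Tables and figures were made in Python 3.11.15. Alternatives were other tests, scalings, filters and features, and leaving out each library. Scaling to a geometric mean of the markers was added after the data had been seen, as was the test of transcript usage.

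The members and lists were chosen with earlier results of these data known. Genes named were all members and their transcripts, pathway genes past both cut-offs, Plcg1, Inppl1, Zap70, Fcer1g, Apoe and Ptpn6, counted neighbours within 20000 bases, App, Prnp, and the 5 genes nearest to Trem2 and to Tyrobp. Clu, Btk and Pik3cg fell outside this rule and were named after their values were seen. Marker genes and Adam10 and Adam17 were named as members of their lists.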

Additional observations from a re-analysis of the deposited data

How the results depend on the processing

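Trem2 and Tyrobp were called higher in APP under all 16 alternatives, at log2 fold changes of 1.01 to 2.05 and 1.28 to 2.16. Between 2 and 4 of the 5 member genes were called, against 3 as reported. Scaled to the summed homeostatic microglial markers, the log2 fold change became -0.34 for Syk, -0.037 for Plcg2 and -0.024 for Inpp5d, and 2 member transcripts (5 as reported), 44 pathway genes (8) and 13289 features (162) were called, since this scale moves the median of all genes to -0.80. With the markers' geometric mean it was -0.29 for Syk and 0.019 for Inpp5d, with 2 transcripts, 45 pathway genes and 12808 features called. Inpp5d at 0.78 also lost its call at a fold change of at least 2, where 3 transcripts, 5 pathway genes and 91 features were called.

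DESeq2 called 3 member transcripts. The exact test called 14 pathway genes and 354 features, the likelihood ratio test 14 and 391, and both called Plcg2 at 0.77. Single transcripts gave 13 pathway genes and 285 features with a call, Plcg2 at 0.77 among them. The causes were not tested.

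Leaving out 1 library left its group with 1, which was assumed to vary like the others. Plcg2 was called without APP.3 or without APP.4, over a range of 0.72 to 0.81. Member transcripts called ran from 3 (without WT.1) to 5. Pathway genes ran from 5 (without WT.1) to 19 (without APP.3), and all features from 134 (without WT.2) to 601 (without APP.3), with 478 without APP.4. No paired analysis was possible because the columns of the 2 groups carry no shared replicate numbers. Counts of 100 to 133 a library for Syk limit what its test could show.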
